A study of Talpa occidentalis with 2 samples.

Results

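Gene deserts of the Iberian mole, Talpa occidentalis, were taken as the stretches of at least 750 kb between successive gene records of the deposited annotation of the build talOcc3. Overlapping gene records on either strand were first merged on each scaffold, and 255 of the 20412 gaps between merged records reached the limit (1.25% of gaps). Gap length chose these 255 regions, so the members were selected on length and their lengths are given as a description. A desert here is a stretch without an annotated protein-coding model, which is not the same as a stretch without transcription. The series profiled contacts of the FGF9 promoter by 4C-seq, in which chromatin ligated to 1 viewpoint is amplified and sequenced. Its libraries came from wild-type mole embryos at embryonic day 15, 1 from forebrain and 1 from hindlimb, both with the FGF9 transcription start site as viewpoint and neither with a replicate. Per the labels, the tissues were dissociated to single cells and fixed before the chromatin was cut with NlaIII and then DpnII; the number of embryos per library is not stated. The annotation has no column for either library, contact values were not analysed here, and no read depth enters any value below.

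In mammals, gene deserts often surround genes that direct development, and many hold enhancers that act on a promoter at the far edge across a shared chromatin domain. Other deserts border genes for neuronal cell adhesion, whose products sit in the synapse or the growing axon. FGF9 encodes a secreted fibroblast growth factor with roles in testis, lung and limb development, and SALL1 encodes a zinc finger repressor needed for kidney and limb formation.

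Both viewpoint genes named in the labels' protocol border a desert, and their 4C primers are shown because they are the sequences that tie the assay to these regions. For each gene the labels give 1 sequence as both forward and reverse primer. No sequence of the build was used here, so neither primer was placed on it.
FGF9: caaaagaaacttccaaaacc
SALL1: tcagtgggctgacatttta

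The FGF9 desert was 1.33 Mb long and lay between RUBCNL and FGF9 (scaffold 38:10406008-11731990), rank 59 by length. Its flanks were convergent, meaning that both genes turned the 3′ end toward the gap. RUBCNL, an autophagy gene, had 13 coding exons over 24.8 kb, and FGF9 had 3 coding exons over 29.3 kb. The 5′ end of FGF9 faced a gap of 132 kb toward MICU2, a regulator of the mitochondrial calcium uniporter. The SALL1 desert was 913 kb long and lay between TOX3, a high-mobility-group box factor, and SALL1 (scaffold 26:25590223-26502894), rank 163. Here SALL1 turned its 5′ end toward the desert, and its 3′ end faced a gap of 194 kb toward CYLD, a deubiquitinase of NF-kappa-B signalling. The viewpoint genes thus differed in the end that met the desert.

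Desert lengths ran from 750.015 to 3374 kb with a median of 1.03 Mb (quartiles 0.841 and 1.30 Mb). The other 20157 gaps had a median of 15.9 kb and reached 746 kb. Of the deserts, 118 (46.3%) were shorter than 1 Mb, 99 (38.8%) were 1 to 1.5 Mb, 29 (11.4%) were 1.5 to 2 Mb and 9 (3.53%) were 2 Mb or longer. Summed, the deserts covered 290.3 Mb, which is 21.4% of all gap length and 15.1% of the 1924 Mb spanned by the annotation. Just inside the limit stood the gaps TSHZ2 to ZFP64 (750.015 kb), RPL3_copy3 to PSAT1 (750.84 kb) and CYP7B1 to ARMC1 (751 kb). Just outside stood MTX2 to HNRNPA3_copy2 (746 kb), COX20_copy12 to LMO3 (745.8 kb) and CPEB2 to a model without a symbol (745.7 kb). The distribution fell off smoothly across the limit, with no break between deserts and the longest of the other gaps.

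**Figure D1:**
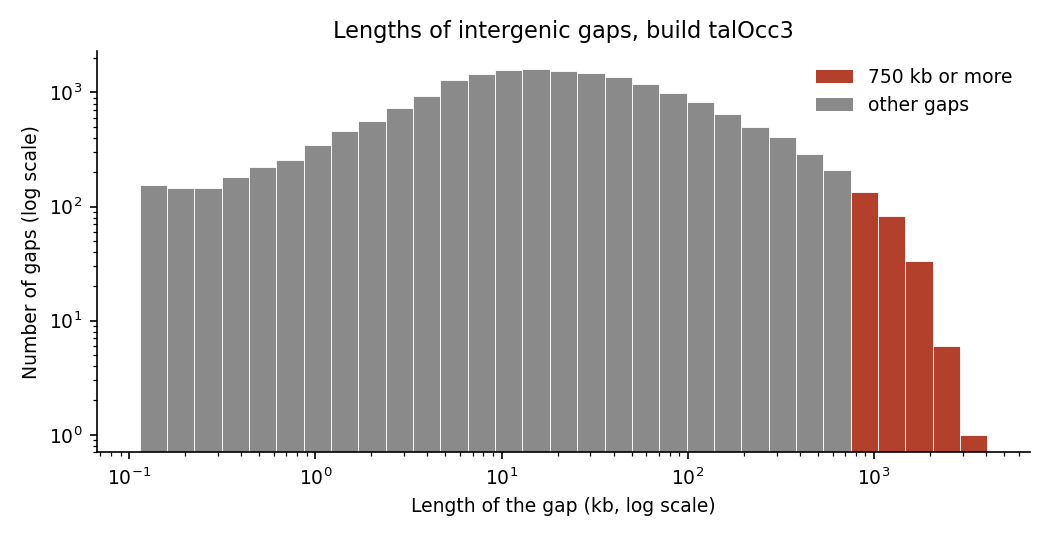
Number of gaps (log scale) by gap length in kb (log scale), with gaps of 750 kb or more in red and the other gaps in grey. Gaps shorter than the leftmost bin are not drawn, and the red bins continue the slope of the grey bins to their left.

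The longest desert separated AGA, a lysosomal enzyme gene, from TENM3 and measured 3.37 Mb (scaffold 13:53489551-56863860). TENM3 encodes a teneurin, a transmembrane protein that matches neurons to their partners, and its 27 coding exons spanned 384 kb. The flanks were divergent, each with its 5′ end toward the gap. Other teneurins bordered the desert of rank 2, ARPC3_copy4 to TENM4 at 2.51 Mb (scaffold 22:8043195-10557887), and that of rank 7, ARF1_copy2 to TENM2_copy2 at 2.08 Mb (scaffold 21:17473970-19552265). All of these teneurin models turned the 5′ end toward the desert. TENM4 had 17 coding exons and 3151 coding bases, and TENM2_copy2 had 2 coding exons and 558 coding bases, against 7895 coding bases for TENM3. Whether TENM4 and TENM2_copy2 hold the whole genes was not tested. The desert of rank 3 lay between ZEB2, a zinc finger and homeodomain repressor, and PPIA_copy7 and measured 2.43 Mb (scaffold 1:25259154-27693153). That of rank 4 ran from RPL29_copy9 to TYRP1, a melanosome enzyme of pigment synthesis, over 2.43 Mb on scaffold 15. CYP2R1_copy2 and PCDH7, a protocadherin, flanked 2.36 Mb on scaffold 10. MRPL42_copy6 and EFNB2, an ephrin ligand of axon and vessel guidance, flanked 2.10 Mb on scaffold 39. BCL11A, a repressor of fetal globin genes, and FANCL, a ubiquitin ligase gene of DNA crosslink repair, flanked 2.07 Mb on scaffold 9. BROX and BRINP3 flanked 2.06 Mb on scaffold 35.

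The deserts of ranks 10 to 20 measured 1.80 to 1.99 Mb. PCDH18 and RPS12_copy4 flanked 1.99 Mb on scaffold 1. KIF14_copy2 and LRRC4C, a synaptic ligand of netrin-G, flanked 1.98 Mb on scaffold 18. PIK3C3, a lipid kinase of autophagy, and SLC35F5_copy2 flanked 1.98 Mb on scaffold 3, and SLC35F5_copy2 and a model without a symbol flanked the next 1.86 Mb. TDRD15 and KLHL29 flanked 1.93 Mb and ST6GALNAC2 and SERPINB8_copy2 flanked 1.90 Mb, both on scaffold 9. On scaffold 6, PCDH9 bordered 1.87 Mb and OLFM4 bordered 1.81 Mb, each opposite a model without a symbol. ZNF431 and the cadherin gene CDH8 flanked 1.86 Mb on scaffold 36. On scaffold 4, ARPC2_copy2 and LSAMP, a neuronal surface protein of the immunoglobulin family, flanked 1.80 Mb, and ALCAM, an adhesion molecule of axons and leukocytes, and NET1_copy2 flanked another 1.80 Mb.

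Many of these flanking names carry a copy suffix, by which the annotation numbers further models of 1 symbol, and such a model often had 1 coding exon. Examples are ARPC3_copy4 with 519 coding bases, PPIA_copy7 with 480, RPL29_copy9 with 450 and ARF1_copy2 with 378. Whether such models are working genes or retrocopies was not tested. Where they stand, the desert ends at the copy and not at the next multi-exon gene. When models with 1 coding exon and either a copy suffix or no symbol were left out before merging, an alternative chosen after the data were seen, 296 deserts with a summed length of 369 Mb resulted. All 255 deserts lay inside one of these, 151 of the 296 had the bounds of a deposited desert, 13 held at least 2 and 55 held none. The longest then ran from MAT2B to TENM2_copy2 (3.37 Mb), AGA to TENM3 (3.37 Mb), FAM181B to TENM4 (3.36 Mb), PTPRD to TYRP1 (3.26 Mb) and PCDH20 to PCDH9 (3.18 Mb). Of those genes PTPRD, a receptor phosphatase that organises synapses, and PCDH20 are adhesion genes that replaced a copy or an unnamed model as the flank.

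The annotation held 23336 models on 2074 scaffolds, and 43 scaffolds held a desert. All but 3 deserts lay on the 41 scaffolds of 10 Mb or more by annotated extent, and 40 of these 41 held at least 1. Scaffold 1 held 21 deserts, and scaffolds 4 and 6 held 16 each. The share of annotated length inside deserts had a median of 15.0% over the 41 scaffolds. It was highest on scaffold 35 at 34.5% and scaffold 36 at 34.0%, followed by scaffold 37 at 27.8% and scaffold 6 at 26.4%. Scaffold 36 was also gene-rich, with 27.6 models per Mb against a median of 9.99 and 5 deserts. Scaffold 25 held 1 desert (2.69% of its length), and scaffold 34, with 26.97 models per Mb over 19.3 Mb, held none. Scaffold ends cut gaps, so a desert that reaches a scaffold end is not counted.

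**Figure D2:**
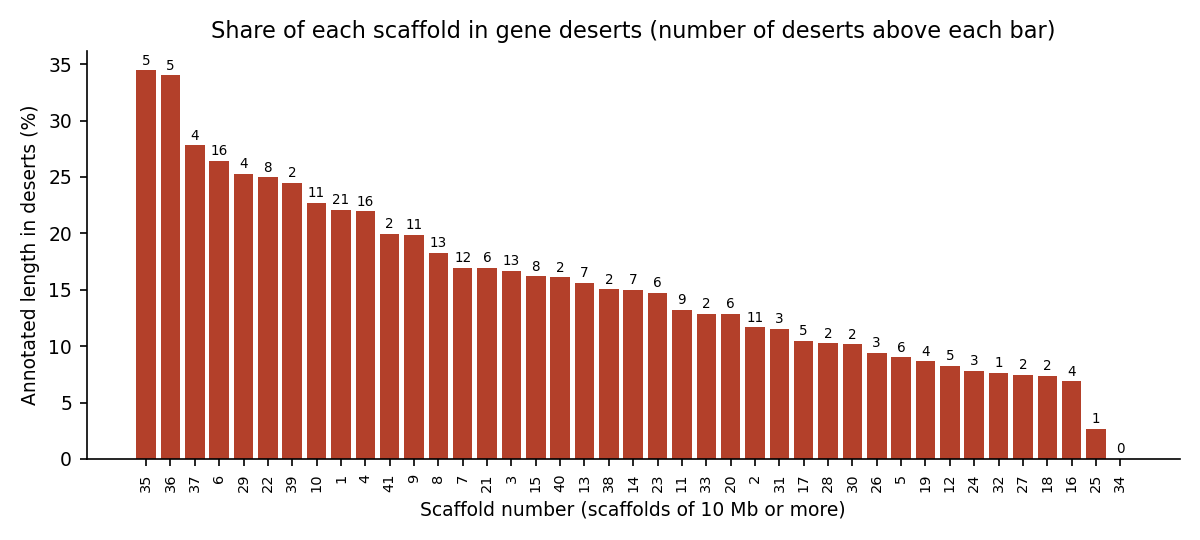
Share of annotated length inside deserts (%) for each of the 41 scaffolds of 10 Mb or more, ordered by that share, with the number of deserts above each bar. The bars run from 34.5% on scaffold 35 to 0 on scaffold 34, and scaffold 1 holds the most deserts at 21.

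Some deserts followed each other, while most stood alone. In 34 places a block of models had a desert on each side, and in 33 of these the block was a single model. The blocks spanned 0.234 to 829 kb with a median of 2.42 kb, and 14 of the 33 single models had 1 coding exon. Among the single models were LRRC4C (deserts of 1.98 and 1.53 Mb), FLRT2, a fibronectin and leucine-rich repeat protein that guides axons and binds latrophilins (1.76 and 1.72 Mb), and CDH8 (1.86 and 1.44 Mb). BRINP3 stood between 2.06 and 1.34 Mb, and PCDH9 between 1.87 and 1.25 Mb. SLITRK1 and SLITRK4, neuronal proteins that control neurite growth, stood between 1.08 and 1.57 Mb and between 1.11 and 1.10 Mb. The nuclear receptor gene NR2F2, which patterns vessels, heart and forebrain, stood between 1.48 and 1.17 Mb. The growth regulator MYC, whose model spanned 1.91 kb, stood between 0.811 and 1.45 Mb. CSMD3, with 70 coding exons over 829 kb, stood between 1.12 and 1.15 Mb. The sorting receptor gene SORCS1 stood between 0.949 and 1.38 Mb. The only block of more than 1 model held ADGRL3, a latrophilin that binds teneurins and FLRT proteins, with 3 models without a symbol or with a copy suffix inside its 429 kb.

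Counted by run, 193 deserts stood alone and 62 fell into 28 runs, 24 of them with 2 deserts. The longest run had 4 deserts over 5.69 Mb near the start of scaffold 36 (36:34683-5724564), with CDH11, ZNF431 and CDH8 as the models inside it. Another run of 4 covered 4.57 Mb on scaffold 8 (8:8626132-13199611). In it CDH18, CDH12, CDH10 and CDH9, type II classical cadherin genes of neurons, followed each other with 1.07 Mb between CDH18 and CDH12, 1.34 Mb between CDH12 and CDH10 and 1.11 Mb between CDH10 and CDH9. A last desert of 834 kb separated CDH9 from RPL36A_copy11. All of these cadherin models had 10 coding exons, with 1854 to 2151 coding bases, while their spans differed from 26.4 kb for CDH9 and 42.1 kb for CDH10 to 154 kb for CDH12 and 166 kb for CDH18. The gaps next to a desert were themselves deserts in 68 of 509 cases (13.4%), which are 34 adjacent pairs each counted from both sides, against 1.12% of the gaps next to other gaps and 3.61% next to other gaps of at least 100 kb. Their median length was 119.6 kb, against 16.7 kb next to other gaps and 53.4 kb next to other gaps of at least 100 kb.

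The neighbourhood outside the deserts was also sparse in models. Within 1 Mb outward of a desert edge stood a median of 6 models (quartiles 3 and 10, 498 edges), against 15 (8 and 28) for other gaps and 8 (5 and 13) for other gaps of at least 100 kb. At 101 edges (20.3%) no more than 2 models stood in that window, against 2.46% of edges of other gaps and 7.12% for other gaps of at least 100 kb. Edges closer than 1 Mb to the end of the annotation on a scaffold were left out, and neighbouring windows overlap, so edges are not independent.

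**Figure D3:**
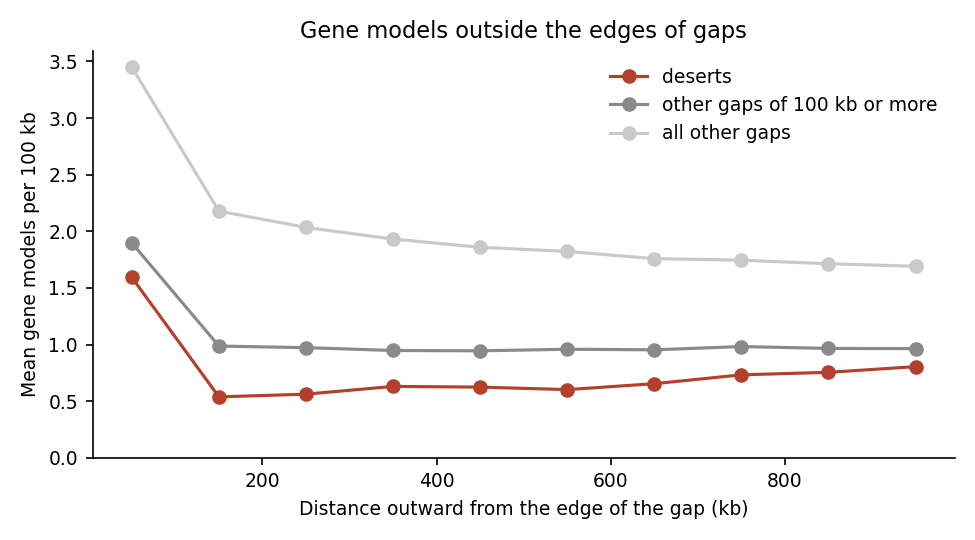
Mean number of gene models in each 100 kb outward of a gap edge, for deserts (red), other gaps of 100 kb or more (dark grey) and all other gaps (light grey). The first bin always includes the flanking model, and from 100 kb outward the desert line runs between 0.538 and 0.805 models and stays under both other lines.

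Each desert has 2 flanks, which gives 510 flanks. A model between 2 deserts counts at each, and the 40314 flanks of the other gaps include many of the same models on their other side, so the intervals given cover counting error only. Gene function was read from symbols with name patterns, some of which were corrected after their matches were seen. The classes were chosen with earlier results of these data known. The adhesion classes were cadherins and protocadherins, and other synaptic and neural adhesion genes. Together they made up 61 of the 510 flanks (11.96%, Wilson 95% interval 9.43 to 15.1). Their share was 0.895% of the flanks of other gaps and 2.23% beside other gaps of at least 100 kb. At least 1 adhesion flank stood at 56 deserts (22.0%), against 1.57% of the other gaps. Transcription factor genes made up 52 flanks (10.2%, 7.86 to 13.1), against 4.42% and 7.74%, at 48 deserts (18.8%), against 8.002% of the other gaps. For both groups the share beside other gaps of at least 100 kb lay between those of the deserts and of all other gaps.

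**Figure D4:**
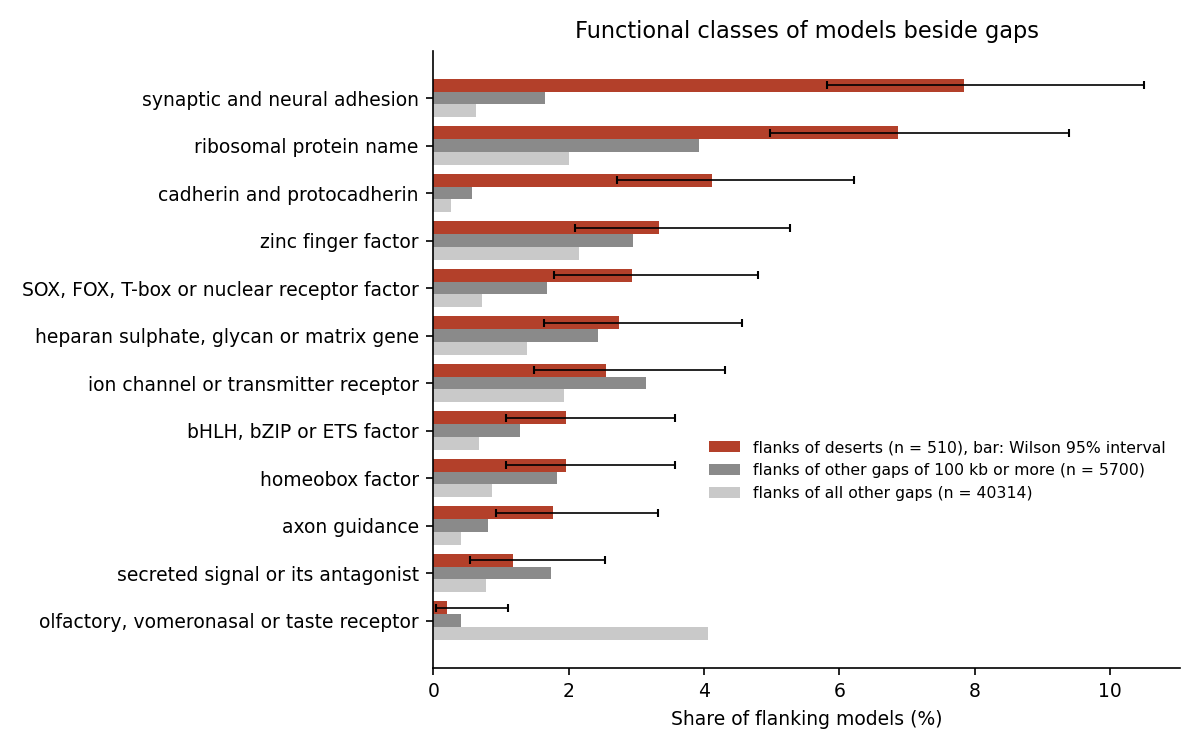
Share (%) of flanking models in each functional class, for the 510 desert flanks (red, with the Wilson 95% interval), the 5700 flanks of other gaps of 100 kb or more (dark grey) and the 40314 flanks of all other gaps (light grey). Set beside other gaps of 100 kb or more, the widest distances are in the 2 adhesion classes, and olfactory, vomeronasal and taste receptors are the class most common beside all other gaps (4.05%) and least common beside deserts (0.196%).

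Cadherins and protocadherins, which join cells through calcium-dependent contacts, made up 21 flanks (4.12%), against 0.258% beside other gaps and 0.579% beside other gaps of at least 100 kb. Of the 65 models of this class in the annotation, 14 bordered a desert (21.5%), against 2.04% of all 23336 models. By longest adjoining desert these were PCDH7, PCDH18, PCDH9, CDH8, CDH2, CDH12, CDH10, CDH11, CDH7, PCDH17, CDH9, CDH18, CDH6 and FAT1_copy2. PCDH9, CDH8, CDH12, CDH10, CDH11, PCDH17 and CDH9 did so on each side. The PCDH9 model had 2 coding exons with 307 coding bases, and FAT1_copy2 had 1 coding exon of 408 bases. Whether these short models hold the whole genes was not tested. CDH2, the neural N-cadherin, had 15 coding exons over 191 kb and turned its 5′ end to a desert of 1.63 Mb. No model with a PCDHA, PCDHB or PCDHG name, the clustered protocadherins, was among them. Of the cadherin symbols beginning with CDH, 9 of 22 with a model bordered a desert, as did 4 of 10 of the protocadherins outside the clusters. Of all 16077 symbols 2.64% bordered a desert, and these family counts were chosen after the values were seen.

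The other neural adhesion genes made up 40 flanks (7.84%), against 0.637% and 1.65%, from 33 of the 164 models of the class. Beside the teneurins, LRRC4C, LSAMP, ALCAM and FLRT2 already described, the latrophilin genes ADGRL2 and ADGRL3 bordered deserts of 1.67 and 1.63 Mb. ADGRL4, a related receptor of endothelium, bordered 1.57 Mb. CNTNAP5 (1.58 Mb) and CNTNAP2 (1.53 Mb) encode relatives of neurexin that cluster ion channels or contact other neurons, and their models spanned 628 and 797 kb. SLITRK1 (1.57 Mb) and SLITRK5 (1.54 Mb) had 1 coding exon of 2280 and 2877 bases. Counted after the values were seen, 5 of 6 SLITRK symbols, 3 of 4 teneurins and 3 of 4 ADGRL symbols with a model bordered a desert, as did 1 of 6 contactins, beside the 2.64% of all symbols. TENM2 entered this count through TENM2_copy2, the model of 558 coding bases. Of the 40 flanks 27 turned the 5′ end to the desert, and 13 had 1 coding exon. Of all desert flanks 53.3% turned the 5′ end to the gap, against 58.6% beside other gaps of at least 100 kb. By class, the facing end was counted at deserts only. The adhesion class thus held both compact models such as LRRC4C (1.92 kb) and some of the widest, such as CSMD3 (829 kb). The LRRC4C record spans no more than its 1920 coding bases. Whether the gene has untranslated exons inside the adjoining deserts was not tested.

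Axon guidance genes made up 9 flanks (1.76%), against 0.407% and 0.807%, and these were EFNB2, ROBO1, EPHA4, EPHA7, UNC5D, DCC, SEMA3D, ROBO2 and SLIT2. EFNB2 is a membrane ligand of EPH receptors, among which EPHA4 (1.45 Mb) and EPHA7 (1.33 Mb) bordered deserts. SLIT2 is the secreted repellent (765 kb) that is sensed by the receptors ROBO1 (1.67 Mb) and ROBO2 (1.02 Mb). DCC (1.06 Mb) and UNC5D (1.27 Mb) are netrin receptors, and SEMA3D (1.05 Mb) is a secreted semaphorin. The median span of these 9 models was 299 kb, and 6 turned the 5′ end to the desert, beside 53.3% of all desert flanks.

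Among transcription factor genes, those of the SOX, FOX, T-box and nuclear receptor families and like factors made up 15 flanks (2.94%), against 0.714% and 1.68%. SOX9, the factor of testis and cartilage formation, turned its 5′ end to a desert of 1.42 Mb that began at the potassium channel gene KCNJ2 (scaffold 28:17941397-19363396). The SOX9 model had 1 coding exon of 841 bases, and the RUNX1 model had 3 coding exons with 503 bases. Whether these 2 models hold the whole genes was not tested. MEF2C (1.32 Mb), RORA (1.11 Mb), GATA3 (1.09 Mb), TBX3 (977 kb), DACH1 (875 kb), SOX5 (872 kb), HNF4G (793 kb), RUNX1 (778 kb) and NR2F1 (769 kb) followed. THRB and RARB, receptors for thyroid hormone and retinoic acid, faced each other with their 5′ ends across 999 kb. Of the 15 flanks 11 turned the 5′ end to the desert, beside 53.3% of all desert flanks. The facing end of this class beside other gaps was not counted.

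Homeobox factor genes made up 10 flanks (1.96%), against 0.868% beside other gaps and 1.82% beside other gaps of at least 100 kb, so the share beside deserts was near that of the longer gaps. Among them were ZEB2 (2.43 Mb), POU3F2 (1.23 Mb), MEIS1 (974 kb), ISL1 (895 kb), NKX6-1 (842 kb), ZFHX4 (793 kb) and TSHZ2 (750.015 kb). MEIS1 is a partner protein of HOX factors in limb and blood, and ISL1 marks motor neurons and heart progenitors. Basic helix-loop-helix, leucine zipper, ETS and like factor genes made up 10 flanks as well (1.96%), against 0.680% and 1.28%. Among these were MYC, at each side, BHLHE22 (1.21 Mb), ETV1_copy2 (1002 kb), MAF (846 kb), NFIA (810 kb), NFIB (779 kb), TCF4_copy2 (775 kb) and EBF1 (762 kb). The MAF model had 1 coding exon of 96 bases. NKX6-1 had 276 coding bases, TCF4_copy2 had 438, ETV1_copy2 had 558 and MYC had 780. Whether these short models hold the whole genes was not tested. Genes matched by the zinc finger pattern, which also takes LIM-only and TOX factors, made up 17 flanks (3.33%), against 2.16% and 2.95%. Among them BCL11A (2.07 Mb) and BCL11B (1.73 Mb), a factor of T cells and cortical neurons, were followed by LMO4 (1.28 Mb), ZBTB20 (1.16 Mb), TRPS1 (1.15 Mb) and TOX (1.09 Mb).

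Genes for secreted signals made up 6 flanks (1.18%), against 0.786% beside other gaps and 1.74% beside other gaps of at least 100 kb. FGF9 had the longest desert of the class, followed by the Notch ligand JAG1 (1.13 Mb), the activin subunit INHBA (839 kb) and the bone morphogenetic protein gene BMP2 (837 kb). NRG3, a ligand of ERBB receptors, stood at both ends of 1 desert of 808 kb on scaffold 11, as a model of 7 coding exons and as NRG3_copy2 with 270 coding bases. Whether that desert is an intron of 1 gene split into 2 models was not tested. Of 19 FGF symbols with a model 1 bordered a desert, beside the 2.64% of all symbols. Ion channels and transmitter receptors made up 13 flanks (2.55%), against 1.93% and 3.14%. GRIK2, a kainate receptor subunit (1.58 Mb), KCNJ2 (1.42 Mb) and CHRM3, a muscarinic receptor (1.42 Mb), had the longest deserts. Of the 13 flanks 4 turned the 5′ end to the desert, beside 53.3% of all desert flanks. Heparan sulphate, glycan and matrix genes made up 14 flanks (2.75%), against 1.38% and 2.44%. In this class ST6GALNAC2 was followed by HS6ST1 (1.52 Mb), GALNTL6_copy2 (1.30 Mb) and ADAMTS5 (1.17 Mb). The ST6GALNAC2 model had 1 coding exon of 990 bases, and GALNTL6_copy2 had 2 coding exons with 248 bases. Whether these 2 models are whole genes or copies was not tested. GPC5 and GPC6, glypicans that carry heparan sulphate, shared a desert of 1.02 Mb.

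Olfactory, vomeronasal and taste receptor genes, which lie in dense clusters, made up 1 flank, OR51G2 opposite LRRC4C (0.196%), against 4.05% beside other gaps and 0.404% beside other gaps of at least 100 kb. Models with a ribosomal protein name made up 35 flanks (6.86%), against 2.01% and 3.93%. Of these 35, 31 had 1 coding exon and 34 carried a copy suffix. With 1-exon copies and unnamed 1-exon models left out the share was 1.52%, against 0.697% beside other gaps, and with every 1-exon record left out 1.27%, against 0.595%. The remaining 319 flanks (62.5%) fell in no class, against 84.1% beside other gaps and 77.6% beside other gaps of at least 100 kb.

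In 11 deserts (4.31%) both flanks belonged to the same class, against 5.31% of other gaps and 2.07% of other gaps of at least 100 kb. These were the cadherin deserts CDH18 to CDH12, CDH12 to CDH10 and CDH10 to CDH9, SLITRK2 to SLITRK4 (1.11 Mb) on scaffold 30, SLITRK6 to SLITRK1 (1.08 Mb), GPC5 to GPC6, THRB to RARB, TOX3 to SALL1, which the name pattern for zinc finger factors holds together, RPL7_copy6 to RPL15_copy2 (993 kb), RPL21_copy24 to RPS2_copy6 (876 kb) and the NRG3 desert, which had the same symbol at both ends. SORCS3 and SORCS1, which were in no class, flanked a desert of 949 kb.

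By structure, 160 of the 510 desert flanks (31.4%, Wilson 95% interval 27.5 to 35.5) had 1 coding exon, against 18.5% beside other gaps and 21.8% beside other gaps of at least 100 kb. In 28 deserts both flanks had 1 coding exon, in 104 just 1 flank, and in 123 neither. A copy suffix was carried by 144 flanks (28.2%), against 18.4% beside other gaps. Flanks without a symbol numbered 31 (6.08%), against 6.15%. By the annotation's own source field, 32.7% of desert flanks had the source exonerate, against 18.6% beside other gaps. Flanks with at least 10 coding exons numbered 133 (26.1%), against 31.9%.

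Desert flanks also held many wide models. A span of at least 100 kb was reached by 111 flanks (21.8%, 18.4 to 25.5), against 5.73% beside other gaps and 16.3% beside other gaps of at least 100 kb. The median span was 11.6 kb, against 8.91 kb beside other gaps and 19.6 kb beside other gaps of at least 100 kb. Flanks with at least 2 coding exons had a median span of 42.3 kb (n = 350), against 13.5 kb (n = 32853) and 32.8 kb (n = 4457). Their median was 7 coding exons and 1340 coding bases, against 8 exons and 1293 bases beside other gaps, so the wider span went with coding regions of similar size.

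The end facing the gap differed less. The 5′ end faced the desert at 272 flanks (53.3%, 49.0 to 57.6), against 50.1% beside other gaps and 58.6% beside other gaps of at least 100 kb. The interval for deserts held the share of all other gaps and ended below that of the longer ones. Among multi-exon flanks the share was 54.9%, against 50.01% and 60.5%. Of the deserts 72 (28.2%) had divergent flanks, with both 5′ ends toward the gap, against 23.2% of other gaps and 34.1% of other gaps of at least 100 kb. Tandem flanks, which read in 1 direction, stood at 128 (50.2%), against 53.7% and 49.1%. Convergent flanks stood at 55 (21.6%), against 23.0% and 16.8%. The direction of the 5′ and divergent differences therefore depended on which gaps were set beside the deserts.

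Binned by gap length, the 5′-facing share was 43.4% under 10 kb, reached 59.2% at 100 to 250 kb and was 54.6% at 500 to 750 kb, 51.7% at 750 kb to 1 Mb and 54.7% at 1 Mb or more. The share of flanks with 1 coding exon was 16.3% at 10 to 50 kb, 27.01% at 500 to 750 kb and 32.2% and 30.7% in the desert bins. Multi-exon flanks with a span of at least 100 kb made up 2.37% under 10 kb, 30.7% at 500 to 750 kb and 28.1% and 34.7% in the desert bins. The adhesion share was 4.41% at 500 to 750 kb, 5.51% at 750 kb to 1 Mb and 17.5% (48 of 274) at 1 Mb or more. The transcription factor share was 9.004% at 500 to 750 kb, 13.1% (31 of 236) at 750 kb to 1 Mb and 7.66% at 1 Mb or more. The shares of exon number, span and facing end thus ran on across the limit without a step, while adhesion genes were most frequent at the deserts of 1 Mb or more.

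**Figure D5:**
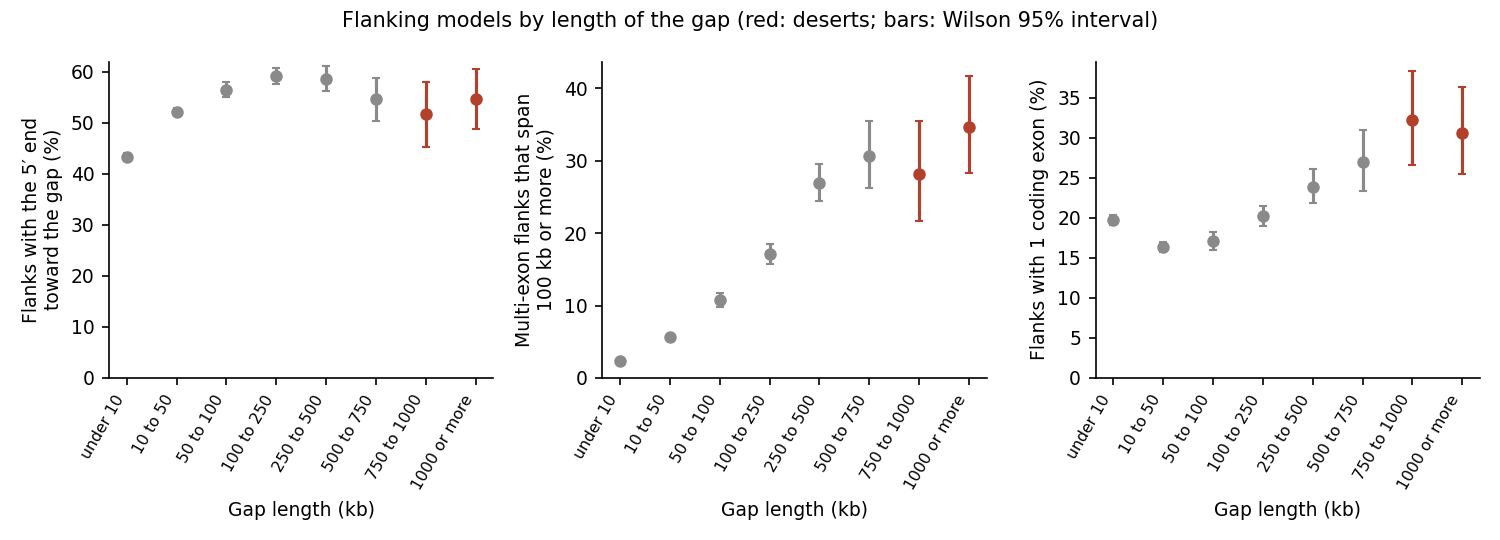
Share (%) of flanks with the 5′ end toward the gap, of multi-exon flanks that span 100 kb or more, and of flanks with 1 coding exon, by gap length in kb, with Wilson 95% intervals and the desert bins in red. The 5′-facing share peaks at 59.2% for gaps of 100 to 250 kb, and the desert intervals overlap that of the 500 to 750 kb bin in each panel.

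The RefSeq annotation of another build of this species, MPIMG_talOcc4v2.1, served to ask whether genes are annotated between the same flanks there, by gene order. Its sequences were inferred, a new one beginning wherever the start position fell from 1 gene to the next. Neighbouring sequences may therefore be joined where it did not fall. Both flanking symbols had 1 model in each table for 86 of the 255 deserts (33.7%), and 83 of these pairs lay on 1 inferred RefSeq sequence. No protein-coding RefSeq gene lay between the flanks in 71 of the 83 (85.5%, Wilson 95% interval 76.4 to 91.5), against 89.5% of other gaps and 88.6% of other gaps of at least 100 kb. The deserts that could be matched are those whose flanks are single-copy named genes, so deserts that end at a suffixed copy are not covered. With 1-exon copies and unnamed 1-exon models left out, the share was 74.4% (119 of 160, 67.1 to 80.5), against 88.1% of other gaps. Nothing at all lay between the flanks in 5 deserts (6.02%), against 67.7% of other gaps and 36.7% of other gaps of at least 100 kb. At least 1 long noncoding RNA gene lay in 72 deserts (86.7%), against 15.2% and 43.7%, and at least 1 pseudogene in 42 (50.6%), against 9.06% and 22.2%. These counts are not scaled to the length of the gap.

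The desert from RUBCNL to FGF9 held 4 long noncoding RNA genes and no protein-coding gene in RefSeq, and that from TOX3 to SALL1 held 3 and none. KCNJ2 to SOX9 held 6, MCTP2 to NR2F2 held 6 and MEIS1 to SPRED2 held 7, the most of any matched desert, shared with TET2 to TACR3. No RefSeq gene of any kind lay between CDH12 and CDH10, CDH10 and CDH9, or THRB and RARB. Protein-coding genes lay in 12 deserts, of which 8 held a gene with a symbol. ID2, an inhibitor of basic helix-loop-helix factors, lay between RNF144A and KIDINS220, CXXC4, an inhibitor of WNT signalling, between TET2 and TACR3, and the lens crystallin gene CRYBB1 between MN1 and TPST2. FAM177B lay between BROX and BRINP3, CUNH6orf118 between QKI and PDE10A, and TEX47 between ZNF804B and STEAP1. None of these 6 spellings is the name of a model in the deposited annotation, where a gene may also stand under an older name. SPRYD7, between DLEU7 and KCNRG, has 2 models elsewhere, and of the genes between MARCO and INSIG2, DDX18 has 4 and CCDC93 has 1. The remaining 3 matched pairs lay on different inferred RefSeq sequences, namely SELENOH and RAPGEF2, SYNJ2BP and SLITRK5, and NUDT12 and SPINK1.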

How the data were processed

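The deposited gene annotation of the build talOcc3 was read as the authors deposited it. Start and end, 1-based per the file's own columns, were the only numeric values used, and they belong to the whole series. Strand, source, feature kind and names were read from the same annotation. How the annotation was made is given only by its source field (EVM, exonerate, ALN). The submitters' processing notes name BWA without a version. Gene records were merged per scaffold, gaps were measured between merged records, and a flank was the record nearest to the gap. Exons and coding bases came from the transcript, which was narrower than the gene record for 412 models. Symbols are model names stripped of any copy suffix, and LOC or numbered models count as having none (21079 of 23336 have one).

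Flanks were put in 12 classes by name patterns. Some patterns were corrected after their matches were seen. Members, lists and classes were chosen with earlier results of these data known. Deserts were set beside all other gaps and other gaps of at least 100 kb by counts, shares and medians, with Wilson 95% intervals and no test. Gap finding was tested on simulated data. RefSeq order (31603 genes) used symbols with 1 model in both tables. Of its coordinates only the start positions were used, to infer where 1 sequence ends and the next begins (461 sequences inferred).

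Named genes were the flanks of the 20 longest deserts, of the 3 gaps on each side of the limit, of the FGF9 and SALL1 deserts, the up to 15 symbols of each class with the longest deserts, symbols with a desert on each side, pairs of 1 class or symbol, and deserts with a protein-coding RefSeq gene inside. Some genes that this rule names are not reported here. Family counts, SORCS3, the flanks of the longest deserts in the thinned annotation, the RefSeq examples and the split pairs were named after their values were seen. Alternatives changed the length limit, the records merged, the gaps set beside the deserts and the counting of repeated models. The tools were Python 3.11.15, pandas 2.3.3, NumPy 2.4.6, SciPy 1.17.1 and Matplotlib 3.10.9.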

Additional observations from a re-analysis of the deposited data

How the results depend on the processing

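Differences are given as deserts minus other gaps in percentage points. With a limit of 500 kb there were 516 deserts and with 1 Mb 137, against 255 at 750 kb, and the adhesion difference was 7.29 and 16.6, against 11.1. With every 1-exon record left out, 316 deserts were found and the difference in spans of at least 100 kb was 21.3, against 16.0. Against other gaps of at least 100 kb, that span difference was 5.48, the transcription factor difference was 2.46 instead of 5.77, and the 5′-facing difference turned to -5.28 from 3.24 and the divergent difference to -5.83 from 5.003. Ion channels and transmitter receptors turned to -0.591 and secreted signals to -0.560 in that comparison. With a limit of 1 Mb, secreted signals turned to -0.0617 and homeobox factors to -0.153. With 1-exon copies and unnamed 1-exon models left out, chosen after seeing the data, the span difference was 20.1, the difference in flanks with 1 coding exon was 4.95 instead of 12.9 by construction, and the RefSeq difference in gaps without a protein-coding gene was -13.7 instead of -3.95. Why the other values moved was not tested. Leaving out records under 300 coding bases gave 272 deserts, leaving out records without a symbol 264, EVM records only 362, and transcript bounds 258. Over the remaining alternatives, 42 main values and 72 values of single classes kept their direction and moved within a set limit. The limit was the distance from the centre to an end of the Wilson interval of the desert share. For counts it was a factor of 1.5. A further 8 values of single classes moved by more and kept their direction. Of these 8, cadherins (5.94) and synaptic adhesion (10.7) were larger at a limit of 1 Mb. Ribosomal protein names were smaller, at 0.671 with every 1-exon record left out and 0.823 with 1-exon copies left out, against 4.86. Olfactory, vomeronasal and taste receptors lay nearer to 0, at -0.207 to -1.83, against -3.86.

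The share of 1-exon flanks has no value when every 1-exon record is left out. The planned comparison of promoter GC and CpG content was not run, since no sequence of the build was used. No paired analysis was possible because each tissue has 1 library and the table holds no value per library. A desert can reflect a missing model, a suffixed copy can shorten one, and an assembly gap can lengthen one, which the annotation alone does not show. A model that lacks untranslated exons can likewise lengthen a desert and narrow the span of its flank. Read depth bears on none of these values.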
